A study of Mus musculus with 4 samples.

Results

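The 10 genes described here are markers of the rare secretory and chemosensory cells of the gut epithelium: the gut hormone genes Gcg, Pyy, Cck, Sct, Gip and Insl5, the granin genes Chga and Chgb, and the tuft cell genes Dclk1 and Trpm5. They were chosen by name, and all 10 were measured, each by 1 probe set, among 22180 genes of a whole-transcript mouse array. The series held 4 arrays, 1 for each of 4 groups of C57Bl/6 mice aged 8 to 10 weeks: small intestinal IEL, colon IEL, colon IEL of recolonized mice, and T cells labelled colon lamina propria. IEL, the intraepithelial lymphocytes, are the lymphocytes lodged between the cells of the gut lining. Recolonized mice drank vancomycin, ampicillin, neomycin and metronidazole for 7 days and then regained bacteria over 7 days, and the other mice were unmanipulated. RNA came from pools of 10 mice (5 male, 5 female), and whether that number holds for each array is not settled by the labels. All 4 samples were enriched for T cells by magnetic removal of other cells, with an antibody to the epithelial protein EpCAM added, so epithelial transcripts are those left after that removal. With 1 array per group there is no replicate and no test, and every value below is a log2 level or a difference of log2 levels of the same gene between arrays.

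Enteroendocrine cells are scattered hormone-secreting cells of the gut epithelium. They store peptides in dense granules built with granins and release them when nutrients reach the lumen. Cells that make Gip and Cck lie mainly in the proximal small intestine, whereas Gcg, Pyy and Insl5 belong to L cells, which become more frequent towards the distal gut, Insl5 being a hormone of the colon. Tuft cells are epithelial chemosensory cells that detect luminal metabolites through a taste-like cascade ending in the channel Trpm5. Dclk1, a kinase that binds microtubules, is their common marker in the mouse intestine.

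The content of the arrays was checked first against marker genes. Cd3e, part of the signalling complex of the T cell receptor, was at 9.49 on small intestinal, 9.17 on colon and 9.43 on recolonized IEL, but at 3.72 in the sample labelled lamina propria. Epcam was at 7.88, 4.28, 5.91 and 9.20 in the same order. The latter sample thus had the lowest level of this T cell marker and the highest level of this epithelial marker. That goes against its label, and the term labelled lamina propria array is used below. The brush border enzyme Sis was at 9.53 on the small intestinal array and at most 4.82 elsewhere, and Car1, a colonocyte carbonic anhydrase, was at 1.49 there and at 7.49 to 11.53 on the colonic arrays. Sis and Car1 thus had their higher levels on the arrays of that origin. All 16 enterocyte markers were at least 2-fold higher on the small intestinal array than on each colonic array. So were 4.14% of the 11206 genes that passed the floor defined below in all 3 comparisons. Colonocyte markers did not separate the arrays in this way. Against colon IEL, 6 of the 10 above the floor defined below were higher on the small intestinal array and 2 lower. Against recolonized IEL 1 of 11 was higher and 4 lower, and against the labelled lamina propria array 12 of 12 were lower. The median gene level was 2.24 on the small intestinal array, 2.41 on colon IEL, 2.39 on recolonized IEL and 2.18 on the labelled lamina propria array. The floor used below is that median: a gene entered a comparison if it reached the median of whichever of the 2 arrays was brighter for it, and a difference counted from 2-fold upwards.

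In the deposited values the 10 genes fell into 3 patterns. Cck and Gip were highest on the small intestinal array and at least 2-fold above each of the 3 colonic arrays. Chga, Chgb and Sct were higher on the small intestinal array than on both colon IEL arrays but highest on the labelled lamina propria array. Some of these differences were under 2-fold: 0.92 for Sct against colon IEL and 0.62 for Chga against recolonized IEL. When the arrays were quantile normalized, these 2 differences were 0.09 and 0.12. After a lowess correction against mean level they were 0.17 and 0.22. Against the labelled lamina propria array those of Chgb (−0.56) and Sct (−0.16) were also under 2-fold. Gcg, Pyy, Insl5, Dclk1 and Trpm5 varied by less than 2-fold over all 4 arrays. Insl5 was under the median gene level on every array.

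**Figure D1:**
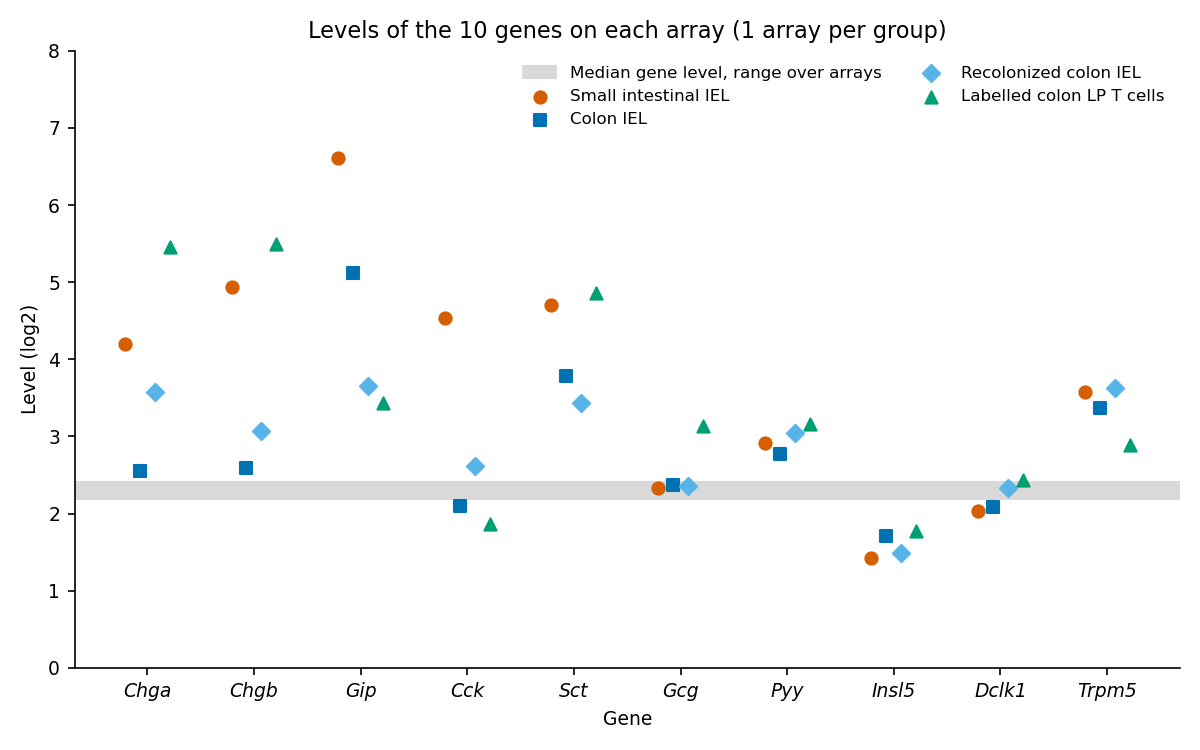
Log2 level (y axis) of each of the 10 genes (x axis) on the 4 arrays, 1 point per array; the grey band spans the median gene level of the arrays, 2.18 to 2.41. Gip and Cck have their highest point on the small intestinal array, Chga and Chgb on the labelled lamina propria array, and the 5 genes on the right lie close together. Heights are not comparable between genes.

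The windows upstream of the 4 genes with the widest range over the arrays are shown because they form the pair highest on the labelled lamina propria array (Chga, Chgb) and the pair highest on the small intestinal array (Cck, Gip). Each run is the 250 bases before the gene's start, read 5′ to 3′ on the gene's strand, from RefSeq on GRCm38.p6. All 10 genes had an entry, with 13 windows among them. Capitals mark matches on either strand to 4 motifs chosen after the sequences were seen: the core of the cAMP response element (TGACGT), the TATA box (TATAAA), an element of GATA factors (AGATAA) and an E-box (CAGATG).
Chga, chr12:102554691-102554940, plus strand: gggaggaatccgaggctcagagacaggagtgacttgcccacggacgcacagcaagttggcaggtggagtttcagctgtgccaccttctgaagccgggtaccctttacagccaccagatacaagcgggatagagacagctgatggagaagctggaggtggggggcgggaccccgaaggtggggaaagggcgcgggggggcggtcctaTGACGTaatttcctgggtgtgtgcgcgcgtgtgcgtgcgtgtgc
Chgb, chr2:132781392-132781641, plus strand: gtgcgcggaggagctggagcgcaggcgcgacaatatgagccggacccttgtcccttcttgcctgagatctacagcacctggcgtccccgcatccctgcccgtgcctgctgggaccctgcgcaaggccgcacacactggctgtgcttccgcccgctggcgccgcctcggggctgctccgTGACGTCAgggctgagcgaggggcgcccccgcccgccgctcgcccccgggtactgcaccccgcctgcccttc
Cck, chr9:121495695-121495944, minus strand: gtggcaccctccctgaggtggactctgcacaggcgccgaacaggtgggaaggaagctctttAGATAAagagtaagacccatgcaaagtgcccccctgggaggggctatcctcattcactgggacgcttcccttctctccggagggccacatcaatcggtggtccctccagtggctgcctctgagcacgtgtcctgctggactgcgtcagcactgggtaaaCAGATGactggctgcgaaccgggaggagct
Gip, chr11:96024295-96024544, plus strand: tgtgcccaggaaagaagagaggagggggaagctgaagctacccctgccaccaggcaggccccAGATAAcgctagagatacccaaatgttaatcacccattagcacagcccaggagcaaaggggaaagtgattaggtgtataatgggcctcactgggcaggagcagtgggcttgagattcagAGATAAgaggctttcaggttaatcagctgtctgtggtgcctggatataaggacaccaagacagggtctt
The letters TGACGT stood from 44 to 39 bases before the start of Chga and from 72 to 67 bases before that of Chgb, where a match on the other strand overlapped it and extended the capitals. They were found in no window of the other 8 genes and in 6.47% of all 32851 promoter windows. AGATAA was found once in the Cck window and at 2 places in the Gip window, in those of 3 of the 10 genes in all (the other being Insl5), and in 9.99% of all windows. CAGATG was found in the windows of Cck, Gcg, Insl5 and Sct and in 14.4% of all, and TATAAA in those of Gcg, Insl5 and Sct and in 12.4% of all. These matches describe letters and do not show binding.

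Among the hormones, Gip, the incretin made by K cells in response to sugar and fat, was at 6.61 on the small intestinal array, 5.12 on colon IEL, 3.66 on recolonized IEL and 3.43 on the labelled lamina propria array. The small intestinal level was the highest, and the colon IEL level lay well above the other colonic arrays. The difference between small intestine and colon was 1.48 (2.79-fold) against colon IEL, 2.95 (7.72-fold) against recolonized IEL and 3.17 (9.02-fold) against the labelled lamina propria array. The first of these shrank to 0.25 when the arrays were quantile normalized and to 0.48 after a lowess correction against mean level, below 2-fold in both cases. Taken relative to the median difference of the pan-epithelial markers, it turned to −0.42 against colon IEL and was 1.91 against recolonized IEL. B cell and plasma cell markers moved with Gip: their median level was 5.77 on the small intestinal array, 3.16 on colon IEL, 2.59 on recolonized IEL and 2.02 on the labelled lamina propria array. Of 10 measured markers of this list, 8 put the 4 arrays in the same order as Gip, against 2.69% of 13822 genes that reached the median of at least 1 array. So did 4 of 14 myeloid and mast cell markers, but 0 of the 15 pan-epithelial and 0 of the 16 enterocyte markers. The part of B cells or of myeloid cells in the Gip values was not tested.

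The 3 genes whose profile over the 4 arrays was nearest to that of Gip, by root mean square difference after centring each gene on its own mean, were Pik3ap1 (0.11), H2-Ob (0.17) and Rasgrp3 (0.20), log2 values over 4 arrays. Pik3ap1 is a signalling adaptor of B cells, and H2-Ob is a chain of an MHC class II accessory molecule. Levels of Pik3ap1 were 5.98, 4.59, 3.09 and 2.60 on the small intestinal, colon, recolonized and labelled lamina propria arrays.

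Cck, the hormone of I cells that drives gallbladder contraction and pancreatic secretion, was at 4.53 on the small intestinal array, 2.10 on colon IEL, 2.61 on recolonized IEL and 1.86 on the labelled lamina propria array. It was well above the median gene level on the small intestinal array alone, since on the recolonized array it exceeded the median of 2.39 only slightly and on the other 2 it lay under it. The differences were 2.43 (5.39-fold), 1.92 (3.78-fold) and 2.67 (6.35-fold), and because the colonic levels are near the low end of the arrays, their size may be limited by it. Each was still at 2-fold or more with quantile-normalized, centred or lowess-corrected values. Relative to the pan-epithelial markers the first 2 were 0.53 and 0.88, below 2-fold. Its nearest genes were Lag3 (0.08), an inhibitory receptor of T cells, Ctrl (0.08), a pancreatic protease of the chymotrypsin family, and Sh2d1b1 (0.09). The order of the arrays for Cck was shared by 3 of 10 pancreatic, 3 of 10 T cell and 2 of 8 Paneth cell markers. It was shared by 0 of 16 enterocyte markers and by 3.48% of 13822 genes. Of 10 pancreatic markers measured, 7 passed the floor in all 3 comparisons. In all, 4 (Cpa1, Cpb1, Ctrb1 and Cel) were at least 2-fold higher on the small intestinal array than on each colonic array, beside 4.14% of 11206 genes. Ctrb1, chosen after its value was seen, was at 6.78 against 2.39, 5.13 and 2.73. The other 6 were not: among the acinar genes, Cela1 was at 5.54 on the small intestinal and 6.11 on the labelled lamina propria array, and Prss2, Cela3b and Amy2b showed no 2-fold excess. The islet genes Ins2 and Ppy were at 1.90 and 2.05 on the small intestinal array, below its median gene level. The part of pancreatic RNA in the Cck values was not tested.

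Sct, which encodes secretin, the hormone that calls forth bicarbonate from the pancreas, was at 4.71 on the small intestinal array, 3.78 on colon IEL, 3.43 on recolonized IEL and 4.86 on the labelled lamina propria array. The small intestinal level fell inside the range of the colonic arrays. It was 1.28 (2.42-fold) above recolonized IEL, 0.92 above colon IEL (−0.98 relative to the pan-epithelial markers) and 0.16 below the labelled lamina propria array. The excess over recolonized IEL was 0.74 with quantile-normalized and 0.83 with lowess-corrected values and 0.24 relative to the pan-epithelial markers, below 2-fold in all 3. Against the labelled lamina propria array the sign was not stable. The difference turned to 0.14 with quantile-normalized, 0.07 with centred and 0.15 with lowess-corrected values, and to 1.74 relative to the pan-epithelial markers.

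The L cell hormones showed no difference of 2-fold in any comparison of the deposited values. Relative to the pan-epithelial markers, Pyy differed by −1.76, −1.17 and 1.65 from the colon, recolonized and labelled lamina propria arrays, and Gcg by 1.10 from the last. That setting moved the median of all genes above the floor to −1.61, −0.83 and 1.73. Gcg, the precursor of the glucagon-like peptides, was at 2.33 on the small intestinal array, 2.37 on colon IEL, 2.36 on recolonized IEL and 3.13 on the labelled lamina propria array. Only the last was clearly above its array's median gene level, and it exceeded the small intestinal value by 1.74-fold, a log2 difference of −0.80 for small intestine minus colon. Pyy, the peptide that slows gut transit, was at 2.91, 2.77, 3.05 and 3.17 in the same order, a range of 0.40. Insl5 was at 1.42, 1.71, 1.49 and 1.77. At these levels a regional difference in Insl5 could not be measured.

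The granins had the same order over the arrays as Epcam. Chga, the granin used to mark enteroendocrine cells in general, was at 4.20 on the small intestinal array, 2.55 on colon IEL, 3.57 on recolonized IEL and 5.45 on the labelled lamina propria array. Chgb, its relative in the same granules, was at 4.94, 2.59, 3.07 and 5.50. Both put the arrays in the same order, with the labelled lamina propria array highest and colon IEL lowest, and both small intestinal levels lay inside the colonic range. Chga was higher on the small intestinal array by 1.65 (3.13-fold) against colon IEL and by 0.62 against recolonized IEL, and lower by 2.39-fold (−1.26) against the labelled lamina propria array. The last fell below 2-fold with quantile-normalized (−0.79) and lowess-corrected (−0.95) values. For Chgb these differences were 2.35 (5.09-fold), 1.86 (3.64-fold) and −0.56.

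That order was also the order of Epcam and of Cdh1, the epithelial cadherin, which was at 6.98, 4.61, 6.46 and 9.23 on the small intestinal, colon, recolonized and labelled lamina propria arrays. Lists differed in how many of their genes shared it: 5 of 12 goblet cell and 4 of 12 colonocyte markers, but 0 of 16 enterocyte markers. It was also shared by 0 of 18 other gut hormones and transmitters, 0 of 23 granule and processing genes and 0 of 22 enteroendocrine transcription factors. Of 15 pan-epithelial markers, 10 had this order, against 20.2% of 13822 genes. Their median level was 5.61, 4.53, 4.95 and 8.33 on the same arrays. Between small intestinal and colon IEL, the markers of this list differed by 0.40 (Cdx2) to 5.18 (Vil1). The sign of a value relative to them thus depends on the markers chosen. Differences were taken relative to the median difference of these markers. Chga then differed by −0.26, −0.41 and 0.64 from the colon, recolonized and labelled lamina propria arrays, and so changed sign in all 3 comparisons. Chgb then differed by 0.45, 0.83 and 1.34 from the colon, recolonized and labelled lamina propria arrays. In such bulk samples fewer cells of a type and less RNA per cell cannot be told apart. The genes nearest to Chga in profile were Map2k1 (0.02), H2bc12 (0.04) and B4galt1 (0.05), those nearest to Chgb were Ifngr2 (0.04), Coa5 (0.05) and Tbc1d15 (0.06), and those nearest to Sct were Bclaf1 (0.02), Ubl3 (0.04) and Necap2 (0.04). These were the closest of 13822 genes over 4 arrays.

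**Figure D2:**
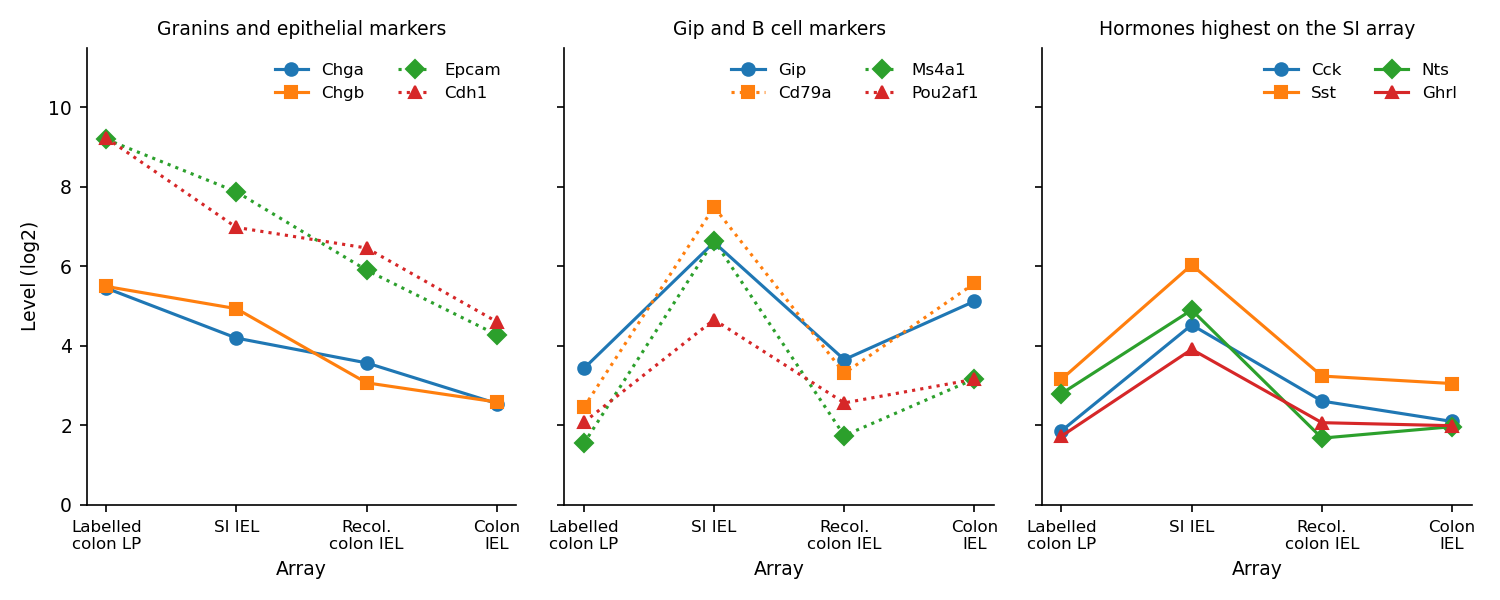
Log2 levels (y axis) on the 4 arrays (x axis), 1 point per array, with lines that only join the points of a gene; solid lines are hormones or granins and dotted lines are markers of other cells. Chga and Chgb fall from the labelled lamina propria array to colon IEL as Epcam and Cdh1 do, Gip has the shape of 3 B cell markers picked after their values were seen, and Cck, Sst, Nts and Ghrl peak on the small intestinal array.

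The tuft cell genes differed by less than 2-fold in the deposited values. Dclk1 was at 2.03 on the small intestinal array, 2.09 on colon IEL, 2.33 on recolonized IEL and 2.43 on the labelled lamina propria array, above the median gene level only on the last. Trpm5 was at 3.57, 3.37, 3.62 and 2.88, with a range of 0.74, and differed by 0.69 between small intestine and the labelled lamina propria array. Relative to the pan-epithelial markers, Trpm5 differed by −1.70, −1.09 and 2.59 from the colon, recolonized and labelled lamina propria arrays, and Dclk1 was over 2-fold higher than on the last. In the deposited values Trpm5 did not share the order of Epcam and the granins: it was lowest on the array with the highest Epcam level.

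Counted together, 7 of the 10 genes passed the floor against colon IEL, and 4 of these (Chga, Chgb, Cck and Gip) were at least 2-fold higher on the small intestinal array, with 0 lower. Over all 12553 genes above the floor, 24.4% were higher and 5.98% lower. Against recolonized IEL, 4 of 7 were higher (Chgb, Cck, Sct and Gip) and 0 lower, beside 17.9% and 4.76% of all genes. In the comparison with the labelled lamina propria array, 2 of 9 were higher (Cck and Gip) and 1 lower (Chga), beside 8.76% and 15.7%. The floor admits a gene through the array where it is high, so these counts describe the genes that passed and not the set. Over all 10 genes the median differences were 0.56, 0.30 and −0.30, and without a floor those over all 22180 genes were −0.06, −0.05 and 0.00. The 3 comparisons share the small intestinal array and are not independent. Of the 10 genes, 7 were above the floor in all 3 comparisons, and 2 of these 7, Cck and Gip, were 2-fold or more above each colonic array. That condition was met by 4.14% of 11206 genes above the floor in all 3 comparisons.

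The share of higher among all differing genes depended on the scaling. Against colon IEL it was 80.3% as deposited, 50.4% with quantile-normalized, 54.9% with centred and 60.3% with lowess-corrected values. Against recolonized IEL it was 79.0%, and 50.8%, 54.2% and 62.3% in the same order. Against the labelled lamina propria array it was 35.8%, and 49.5%, 49.5% and 47.5%. Relative to the pan-epithelial markers the share was 3.89%, 10.9% and 97.9% in the 3 comparisons. For the 968 genes with 2 probe sets, the differences of both disagreed with an SD of 1.08, 0.90 and 0.86 in the 3 comparisons, in the order given. That is a spread between probe sets on the same arrays. It does not measure variation between pools or arrays, for which there is no replicate.

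**Figure D3:**
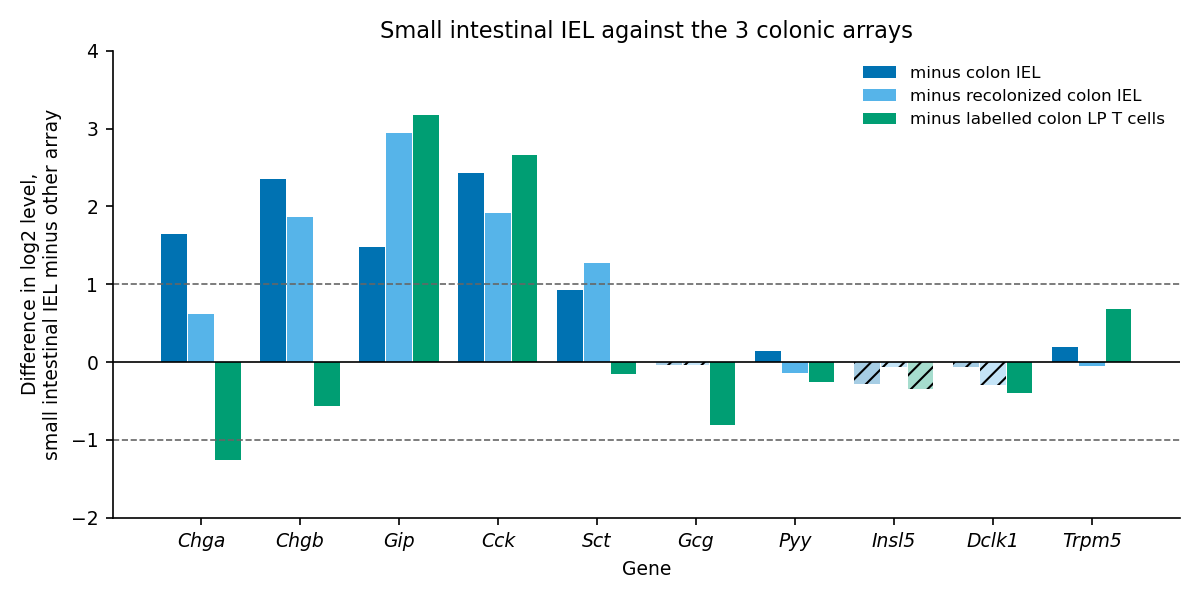
Difference in log2 level (y axis) between the small intestinal array and each of the 3 colonic arrays for each gene (x axis); dashed lines mark 2-fold and hatched bars are genes that did not pass the level floor. Bars of Gip and Cck exceed 2-fold in all 3 comparisons (the bar of Gip for colon IEL turns negative relative to the pan-epithelial markers), while Chga differs in direction between colon IEL (1.65) and the labelled lamina propria array (−1.26), both turning relative to those markers.

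The other lists are read against all genes above the floor. Of these, 24.4%, 17.9% and 8.76% were higher and 5.98%, 4.76% and 15.7% lower against the colon, recolonized and labelled lamina propria arrays. No set test was made. List genes too pass the floor through the array where they are high, so the counts describe the genes that passed and not the lists. The lists were not redone with rescaled values. Of 18 other gut hormones and transmitters measured, 9 passed the floor against colon IEL; 4 were higher on the small intestinal array and 0 lower, with a median of −0.19. Sst, the inhibitory hormone of D cells, was at 6.04 on the small intestinal array and at 3.05, 3.24 and 3.16 on the colon, recolonized and labelled lamina propria arrays. Nts, neurotensin of the distal small intestine, was at 4.90 against 1.97, 1.68 and 2.80. Ghrl, the hunger hormone ghrelin, was at 3.91 against 1.99, 2.07 and 1.73. These 3 joined Cck and Gip in being at least 2-fold above every colonic array. Tph1, which makes serotonin in enterochromaffin cells, was at 3.58 against 2.08, 2.75 and 3.35, so it was higher by 2-fold only against colon IEL. Against recolonized IEL 3 of 12 genes that passed were higher, and against the labelled lamina propria array 3 of 7, with medians of −0.23 and 0.27 and 0 lower in both.

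Of 23 genes of the secretory granule and of prohormone processing measured, 14 passed the floor against colon IEL, 1 was higher and 1 lower, and the median was −0.10. Ddc, the decarboxylase of serotonin and dopamine synthesis, which enterocytes also express, was at 5.25 on the small intestinal array and at 3.41, 3.16 and 4.54 on the colon, recolonized and labelled lamina propria arrays. Rab3c, a GTPase of secretory vesicles, was at 2.72 against 5.87, 3.54 and 2.69, so it stood out on the colon IEL array. Syp and Cplx2, of synaptic-type vesicles, were lower than on colon IEL by less than 2-fold (−0.84 and −0.77), and Cplx2 was lower than on recolonized IEL by −1.51. Against recolonized IEL 1 of 17 was higher and 1 lower. Against the labelled lamina propria array 0 of 17 were higher and 2 were lower: Pam, which amidates peptide hormones, at 3.21 against 4.90, and the vesicle calcium sensor Syt7 at 1.92 against 2.92. Pcsk1, the convertase that cuts prohormones, had its highest level, 2.97, on the labelled lamina propria array, and was at 2.06 on the small intestinal array.

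Of 22 transcription factors of the enteroendocrine lineage measured, 14 passed the floor against colon IEL, and 0 were higher and 3 lower, beside 24.4% and 5.98% of all genes. Their median was −0.43, and that of all genes 0.30. Without a floor these medians were −0.22 and −0.06, so the size of the contrast depends on the floor. Of the 22 factors, 14 reached the median gene level of colon IEL and 10 that of the small intestinal array. Insm1 was at 3.31 on the small intestinal array and at 5.52, 3.86 and 3.46 on the colon, recolonized and labelled lamina propria arrays. Insm1 thus was highest on the array where Chga was lowest. Foxa2 was at 3.30 against 4.90, 4.49 and 4.20, and Etv1 at 1.80 against 3.31, 2.24 and 1.77. Onecut3 was lower by less than 2-fold than on colon IEL (−0.94) and by −1.08 than on recolonized IEL. Neurog3, the factor that commits a crypt cell to the lineage, was below the floor in all 3 comparisons. Against recolonized IEL 0 of 10 were higher and 3 lower, beside 17.9% and 4.76%. With the labelled lamina propria array, 1 of 11 was higher and 3 lower, beside 8.76% and 15.7%, among them Foxa1 at 2.94 against 6.38 and Tox3 at 2.30 against 4.82; both are expressed beyond the enteroendocrine lineage.

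Most nutrient sensors and hormone receptors lay below the median gene level of the small intestinal array: 5 of 16 and 2 of 12 reached it. Their list medians there were 1.83 and 1.79. Of 16 sensors, 7 passed the floor against colon IEL and 2 were higher, the glucose transporter Slc5a1 (8.59 against 2.47) and the peptide transporter Slc15a1 (8.45 against 2.14), which are brush border proteins of enterocytes and were also in the enterocyte list. None was lower, Casr and Abcc8 differing by −0.79 and −0.72, and the median was −0.25. Against recolonized IEL 2 of 5 were higher and 0 lower. In the comparison with the labelled lamina propria array it was 2 of 6 higher and 2 lower (Ffar4 and Gpr35). The free fatty acid receptors Ffar2 and Ffar3 and the lipid receptor Gpr119 were below the floor in all 3 comparisons.

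Of the 12 receptors of these hormones, Glp1r, the receptor of the glucagon-like peptide encoded by Gcg, stood apart. It was at 7.78 on the small intestinal array, 2.90 on colon IEL, 4.42 on recolonized IEL and 2.72 on the labelled lamina propria array. The small intestinal level exceeded the others by 4.88, 3.36 and 5.06. Epcam was at 7.88, 4.28, 5.91 and 9.20 and Cd3e at 9.49, 9.17, 9.43 and 3.72 on the same arrays, and which cells the Glp1r signal came from was not tested. The receptor genes Npy5r, Gipr and Gcgr differed from colon IEL by −0.85, −0.66 and −0.57. In all, 5 receptors passed the floor against colon IEL, 6 against recolonized IEL and 2 against the labelled lamina propria array, 1 was higher in each comparison (Glp1r), and 0 were lower. Their medians were −0.57, −0.44 and 2.55, the last resting on 2 genes.

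Of 40 further tuft cell genes measured, 30 passed the floor against colon IEL, 9 were higher and 2 lower, and the median was 0.30. These are near the values over all genes, 24.4% higher, 5.98% lower and a median of 0.30. Against recolonized IEL 7 of 30 were higher and 1 lower (median 0.17), and against the labelled lamina propria array 10 of 29 were higher and 2 lower (median 0.75), beside 8.76% and 15.7% of all genes (median −0.17). The members with the largest differences are not confined to tuft cells: the interleukin-13 receptor chain Il13ra1 was at 6.18 against 2.58 on colon IEL and 7.08 on the labelled lamina propria array. Spib and Lrmp, which B cells also express, were at 4.88 against 2.14 and at 5.19 against 3.12 on colon IEL, and Kctd12 at 4.48 against 2.58. Of these, Spib, Lrmp and Kctd12 were at least 2-fold above each colonic array, as was Pik3cg, a kinase subunit of leukocytes. Against the labelled lamina propria array, Hepacam2 was lower (3.27 against 6.66), and Fyb, an adaptor of T cells, was higher (5.36 against 2.15), beside Cd3e, higher by 5.77.

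Single tuft cell genes differed in level. Pou2f3, the factor that specifies tuft cells, was at 1.34 to 1.63 and below the floor in all 3 comparisons, and the succinate receptor Sucnr1 likewise. Avil and Sh2d6 were at 3.31 and 2.52 on the small intestinal array and differed by less than 2-fold from each colonic array. Rgs13 and Sh2d7, chosen after their values were seen, were at 3.16 against 1.33 and at 3.27 against 1.90 on colon IEL. Both passed 2-fold in that comparison, and Rgs13 was also higher than on recolonized IEL (1.45), while against the labelled lamina propria array both stayed within 2-fold (0.90 and 0.76). Markers of enteric neurons and glia, which share granins and vesicle genes with enteroendocrine cells, had a median of 1.81 on the small intestinal array. Of 11 measured, only 4, 3 and 3 passed the floor against the colon, recolonized and labelled lamina propria arrays, so most could not be called. Among those that passed, 0 were at least 2-fold higher in each comparison, beside 24.4%, 17.9% and 8.76% of all genes. The part of neurons in the granin values was not tested.

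**Figure D4:**
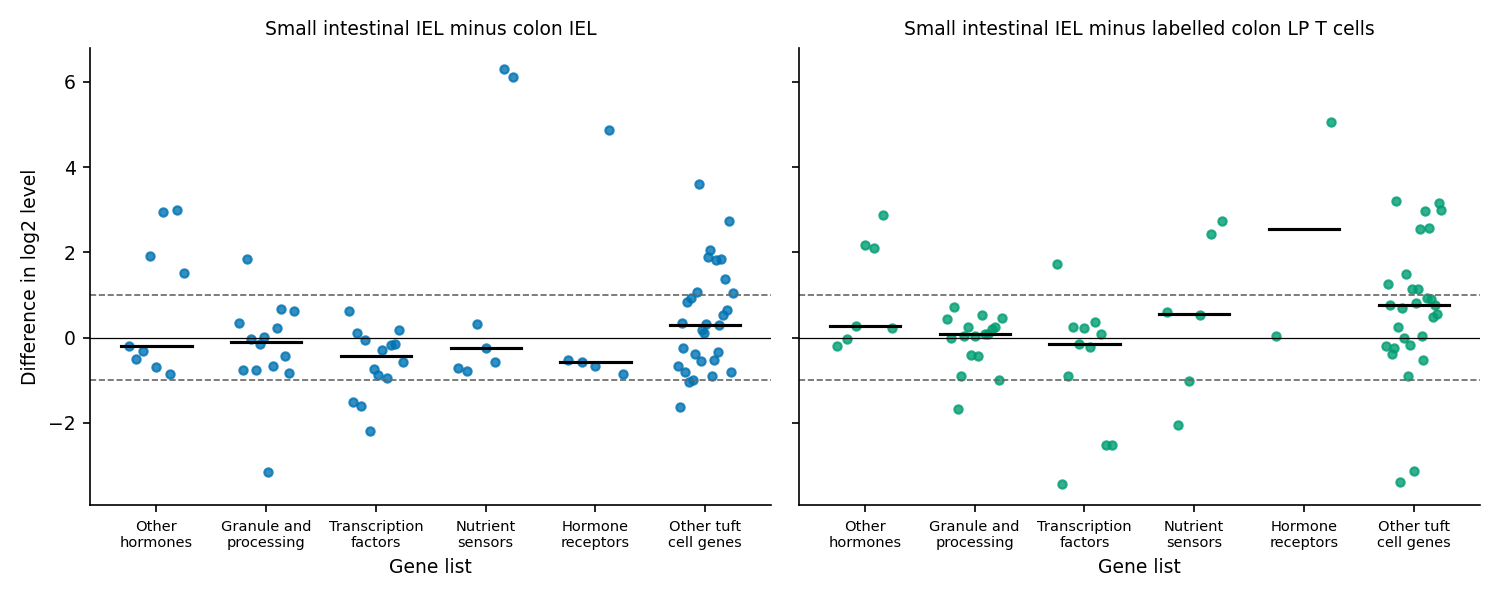
Difference in log2 level (y axis) for the genes of 6 lists (x axis) above the floor, small intestinal IEL minus colon IEL on the left and minus the labelled lamina propria array on the right; each point is a gene, black bars are list medians and dashed lines mark 2-fold. Most genes of these lists lie between the dashed lines; the highest points are Slc15a1 and Slc5a1 on the left and Glp1r on the right.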

How the data were processed

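The submitters' processing notes name Affymetrix Expression Console. The deposited values are per probe set on a log2 scale, and no source used here gives the version, the summarization or the normalization. Of 41345 probe sets, 23521 had 1 gene symbol in GEO's platform annotation, 1814 had several and 16010 were not listed there. Each gene was read from the single-symbol probe set whose mean over the 4 arrays was highest. The sources name no build for probe sets, so only RefSeq promoter windows carry coordinates. Differences of log2 levels were taken between the small intestinal array and each other array (Python 3.11.15, pandas 2.3.3, statsmodels 0.14.6), with a floor at the 50th percentile of the brighter array and a threshold of 2-fold. There is 1 array per group, so no test was made, and the number of arrays limits the precision. The steps were tested on simulated data. The genes and the 18 other lists were chosen with earlier results of these data known. All 10 genes are named; of each other enteroendocrine or tuft cell list, the 4 genes with the largest absolute difference from colon IEL and the 2 from the labelled lamina propria array are named, besides fixed markers, and others are named as members of a count or after their values were seen. Alternatives were no floor or one at the 75th percentile, thresholds of 1.5-fold and 3-fold, averaging the probe sets of each gene, quantile-normalized values, arrays centred on the median of the genes tested, a lowess correction (span 0.3) and differences relative to the pan-epithelial markers. Another pseudocount was not run, since the values are on a log scale.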

Additional observations from a re-analysis of the deposited data

How the results depend on the processing

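The alternatives were those listed in the account of the processing. Over the 10 genes, 3 comparisons and 9 alternatives there were 270 differences, 30 per alternative. Other floors and other thresholds left each difference as it was. So did averaging of probe sets, since each of the 10 genes had 1, and no sign could change in these alternatives. At the threshold of the alternative, be it 1.5-fold, 2-fold or 3-fold, 14 differences lost their call without changing sign. Another 14 gained a call, 7 of them with a change of sign. The sign changed in 28. Of these, 6 arose with quantile-normalized, 6 with lowess-corrected and 3 with centred values, each from a difference of at most 0.20. The other 13 arose relative to the pan-epithelial markers, a setting that moved the median of all genes above the floor to −1.61, −0.83 and 1.73. Only 3 of the 28 had been called as reported, all in that setting: Chga against colon IEL (−0.26), Gip against colon IEL (−0.42) and Chga against the labelled lamina propria array (0.64). In that setting 0 genes were higher and 2 lower against colon IEL (median −0.42), 1 higher and 2 lower against recolonized IEL (median 0.24), and 8 higher and 0 lower against the labelled lamina propria array (median 1.65). The median difference of the genes above the floor, 1.48 against colon IEL and 1.28 against recolonized IEL, was 0.56 and 0.30 with no floor, and 0.19 and 0.43 under quantile normalization. After the lowess correction it was 0.48 against colon IEL. Against the labelled lamina propria array the number of lower genes, 1 as reported, was 2 at 1.5-fold. It was 0 at 3-fold, with quantile-normalized values and with lowess-corrected values. No paired analysis was possible because each group is 1 array. With 1 array per group no value has an error, and levels near the median gene level limit what can be said of Gcg, Insl5 and Dclk1.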
